A study of Mus musculus with 6 samples.

Results

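The genes that surround Apoe on mouse chromosome 7 were examined in aortas of 3 groups of mice. The genes were chosen by name and position: 45 genes (46 names, since Pvrl2 is the older name of Nectin2), all of which lie on chromosome 7 within 5 Mb of Apoe in the RefSeq annotation of assembly GRCm38.p6. The rule uses no expression value. The array carried 75 probe sets assigned to 1 of these genes and to no other, of 45101 probe sets in all, and they stood for 43 genes. Calm3 and Snrpd2 had no probe set of their own. Signal intensity was high enough for testing in 41 of the 75 probe sets, which stood for 32 genes, of 17909 probe sets tested on the whole array.

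The mice were vitamin E-treated ApoE-/- mice, untreated ApoE-/- mice and B6 mice, the non-transgenic C57BL/6J controls, all 32 to 34 weeks old. The treated mice received vitamin E in the diet, 2000 IU per kg, over 7 months. Both ApoE-/- groups lack apolipoprotein E in all tissues and were kept on a B6 background, and no tocopherol was added to the chow except the vitamin E of the treated mice. Each group was measured on 2 Affymetrix MG430 2.0 arrays, and each array was hybridised with pooled RNA of 3 aortas, so a spread between arrays is a spread between pools and not between mice. The sample records of the vitamin E-treated arrays are numbered apart from those of the untreated ApoE-/- and B6 arrays, and the paper names 2 deposits. Whether the groups were processed together is not given, so processing cannot be told apart from vitamin E treatment.

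Apolipoprotein E is a ligand of lipoprotein receptors that clears remnant particles from blood, and mice without it have hypercholesterolemia and atherosclerosis. Its gene lies in a dense stretch of chromosome 7 that also holds the small apolipoproteins of the C class, a channel protein of mitochondrial import, immunoglobulin-like adhesion molecules and members of the NF-kB family. As background, genes close to a targeted locus are inherited together with it, and in a backcrossed line a segment around the targeted allele can come from the strain of the embryonic stem cells. The strain origin of chromosome 7 in these mice was not examined.

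Signal intensities are linear values that the authors scaled per array. Values under 20 were set to 20 and log2-transformed, and differences were tested with limma on all 6 arrays for probe sets that reached a mean of 100 in 1 group or more. An adjusted p under 0.05 (Benjamini-Hochberg over all 17909 probe sets) is referred to as a call, higher or lower. For 3 comparisons, ApoE-/- aortas were set against B6 aortas, namely as vitamin E-treated ApoE-/-, untreated ApoE-/- and the mean of both ApoE-/- groups, and they share the B6 arrays. Of the differences from B6, a log2 fold change given without a group is that of the mean of both ApoE-/- groups against B6. The other was vitamin E-treated minus untreated ApoE-/-. With 2 arrays a group, an exact permutation test on a single probe set could not give a two-sided p below 0.333 for 2 against 2 arrays or 0.0667 for 4 against 2, so calls rest on the fit across all probe sets, and t-tests were run only as an alternative.

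The arrays differed between groups in more than this stretch. Apoe itself had signal intensities of 40.5 and 45.3 in vitamin E-treated ApoE-/-, 93.2 and 57.4 in untreated ApoE-/- and 5209 and 5432 in B6 aortas. Smooth muscle markers (8 of 8 tested) summed to 19422 on average in vitamin E-treated ApoE-/-, 21007 in untreated ApoE-/- and 21968 in B6 aortas, which fits the labelled tissue. Markers of other tissues were present as well, and some are given beside the results. Probe sets of poly-A control transcripts summed to 1557 and 1517 in vitamin E-treated ApoE-/-, 1217 and 1178 in untreated ApoE-/-, and 4174 and 4202 in B6 aortas, and the ratio of 3′ to 5′ probe sets of Gapdh, a sign of RNA quality, was 1.15 and 1.24 in vitamin E-treated ApoE-/-, 1.03 and 1.06 in untreated ApoE-/- and 1.35 and 1.34 in B6 aortas. For Actb this ratio was 1.64 on both vitamin E-treated ApoE-/- arrays, 1.78 and 1.88 in untreated ApoE-/- and 2.01 and 2.06 in B6 aortas. None of these measures overlapped between any of the 3 groups, so RNA labelling and quality cannot be told apart from genotype or from vitamin E treatment. In whole aortas, fewer cells of a type and less RNA per cell cannot be told apart either.

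Most tested genes around Apoe differed between ApoE-/- and B6 aortas, and more of them were higher than lower in ApoE-/- aortas. In the mean of both ApoE-/- groups against B6, 28 of 41 probe sets were called (68.3%), 19 higher and 9 lower, and they stood for 23 genes. Over all 17909 probe sets the share called was 45.4%, with 24.1% higher and 21.3% lower. The median log2 fold change was 0.31 over the 41 probe sets and 0.03 over all, and the median size without sign was 0.38 against 0.27. Only 3 of the 28 calls reached a 2-fold difference, namely Apoc1, Slc1a5 and a probe set of Ppp1r13l. With 1 B6 array left out, the count of calls was 16 (without replicate 1) or 14 (without replicate 2), where the share over all probe sets was 26.1% or 27%. Of the 41 probe sets, 7 reached the limit of 100 in only 1 or 2 groups, so that a difference decided in part whether they were tested, and 5 of these were called. Of the 34 that reached it in all groups, 23 were called (67.6%), against 43.7% of all such probe sets.

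The split depended in part on the scaling. With quantile normalization, 17 members were called higher and 10 lower in the mean of both ApoE-/- groups, against 21.9% and 22.9% of all probe sets. With each array centred on its median, the fold changes against B6 shifted by a median of -0.11 on the log2 scale for the mean of both ApoE-/- groups (-0.15 for vitamin E-treated and -0.07 for untreated ApoE-/-), and 11 members were called higher and 11 lower, against 16.8% and 29.6% of all probe sets. On the scale as deposited, all 4 ApoE-/- arrays lay above both B6 arrays for 19 of the 41 members and below both for 9 members. Over all probe sets tested these shares were 28% and 25.4%.

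The groups taken singly gave fewer calls. For vitamin E-treated ApoE-/- minus B6 aortas, 23 of 41 were called (56.1%), 16 higher and 7 lower, where the share over all probe sets was 41.1% (21.9% higher and 19.2% lower). With median centring this split was 11 higher and 8 lower, against 13.4% and 30.1% of all. For untreated ApoE-/- minus B6 aortas, 20 of 41 were called (48.8%), 14 higher and 6 lower, where the share over all was 40.8% (21.7% higher and 19.1% lower). Without B6 replicate 1 or 2 the count was 13 or 9 with vitamin E (24.2% or 24.7% of all), and without untreated replicate 2 it was 13 in untreated ApoE-/- aortas (24.7% of all). A call in both comparisons was made for 14 probe sets, 10 higher and 4 lower in each, and 12 had a call in neither, where the shares over all probe sets were 14.6%, 12.7% and 45.9%.

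**Figure D1:**
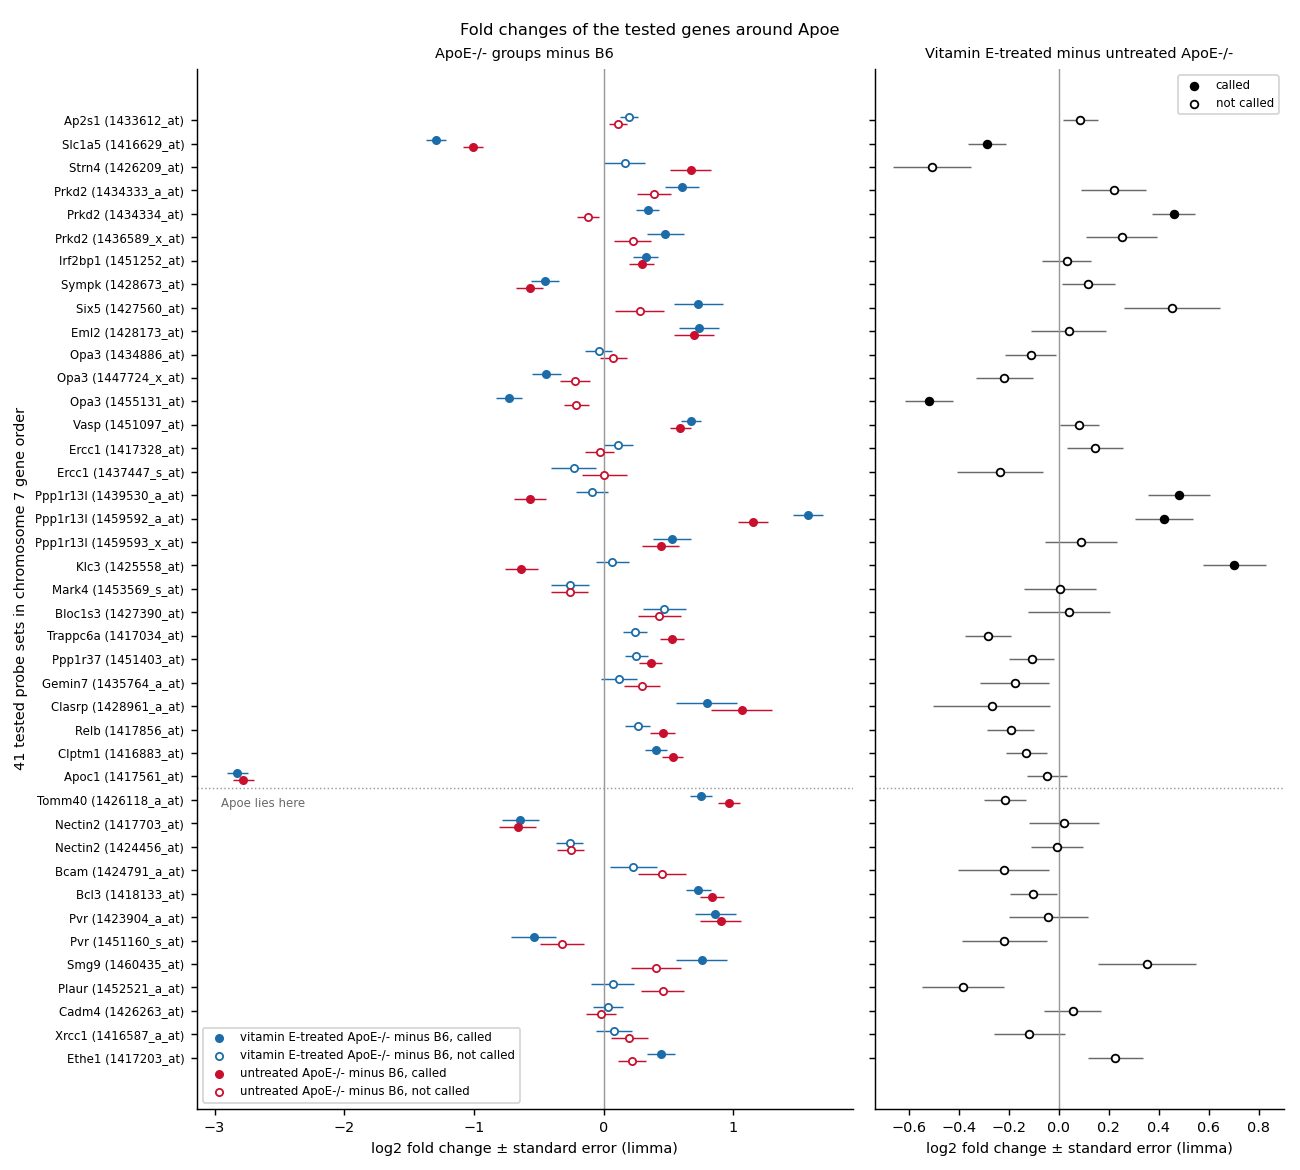
Log2 fold changes with standard errors from limma for the 41 tested probe sets, in chromosome 7 gene order from top to bottom, with Apoe at the dotted line. Left, vitamin E-treated ApoE-/- (blue) and untreated ApoE-/- (red) minus B6; right, vitamin E-treated minus untreated ApoE-/-; filled points were called. Apoc1 lies far to the left at -2.82 and -2.78, most other members lie within 1 log2 unit of 0, and 6 points are filled on the right.

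Apoc1, the gene next to Apoe, encodes a small apolipoprotein of chylomicrons, very low density and high density lipoproteins that is made mainly in liver and in macrophages. Its signal intensity was 386 and 355 in vitamin E-treated ApoE-/-, 371 and 394 in untreated ApoE-/- and 2745 and 2501 in B6 aortas. Both ApoE-/- groups lay far below B6, without overlap, and close to each other. The difference was 6.97-fold lower in both ApoE-/- groups than in B6 aortas (log2 fold change -2.80, SE 0.07, limma adjusted p = 4.3e-07), which made it the largest of the members. The next apolipoprotein genes on that side, which are not among the listed genes, were also lower. Apoc4 had 46.8 and 82.3 in vitamin E-treated ApoE-/-, 42.2 and 58.8 in untreated ApoE-/- and 305 and 333 in B6 aortas (log2 fold change -2.52), and Apoc2, an activator of lipoprotein lipase, was dim in ApoE-/- aortas, with a mean of 29.7 with vitamin E and 23.6 without, against 113 in B6 aortas (log2 fold change -2.04). Apoc4 and Apoc2 reached the limit for testing only through B6 aortas.

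Markers of hepatocytes moved the same way as these apolipoproteins. All 6 of 6 hepatocyte markers were called lower in both ApoE-/- groups than in B6 aortas, and their summed signal was 1415 and 1487 in vitamin E-treated ApoE-/-, 735 and 786 in untreated ApoE-/-, and 16525 and 16511 in B6 aortas. Between the ApoE-/- groups, 5 of the 6 were called higher with vitamin E, while Apoc1 differed by -0.05 on the log2 scale (SE 0.08, limma adjusted p = 0.73). Macrophage markers, the other known source, summed to 12588 in vitamin E-treated ApoE-/-, 13762 in untreated ApoE-/- and 9479 in B6 aortas, with 5 of the 7 tested called higher and none lower in the mean of both ApoE-/- groups. Their part in the Apoc1 difference was not tested.

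On the other side of Apoe, the nearest genes moved in both directions. The sequences upstream of Tomm40, Nectin2 and Bcl3 are shown because these are the tested genes nearest to Apoe on that side that were called and have a promoter in the table used here, and because they moved in opposite directions. Each is the 250 bases before the RefSeq transcription start on the minus strand of GRCm38.p6, at chr7:19715430-19715679 for Tomm40, chr7:19749574-19749823 for Nectin2 and chr7:19822756-19823005 for Bcl3, written 5′ to 3′. Capitals mark GGGCGG, the GC box bound by Sp1-like factors, CCAAT, the box bound by NF-Y, and TATAAA, the TATA box, on either strand.
Tomm40: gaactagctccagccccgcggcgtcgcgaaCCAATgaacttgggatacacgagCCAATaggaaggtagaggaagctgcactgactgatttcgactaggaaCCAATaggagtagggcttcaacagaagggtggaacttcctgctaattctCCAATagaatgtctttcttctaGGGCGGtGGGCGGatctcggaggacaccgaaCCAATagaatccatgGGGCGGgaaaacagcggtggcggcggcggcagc
Nectin2: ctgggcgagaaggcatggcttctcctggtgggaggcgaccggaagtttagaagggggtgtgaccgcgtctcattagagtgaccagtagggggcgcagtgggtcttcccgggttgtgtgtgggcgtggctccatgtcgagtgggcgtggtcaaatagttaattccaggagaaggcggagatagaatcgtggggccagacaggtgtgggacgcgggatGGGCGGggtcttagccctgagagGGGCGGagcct
Bcl3: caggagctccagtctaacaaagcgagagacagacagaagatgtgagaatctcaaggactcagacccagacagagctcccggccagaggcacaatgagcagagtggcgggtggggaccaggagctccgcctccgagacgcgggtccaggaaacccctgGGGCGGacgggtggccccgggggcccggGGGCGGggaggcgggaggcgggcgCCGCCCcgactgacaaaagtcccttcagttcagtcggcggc
The Tomm40 window held 3 GC boxes and 5 CCAAT boxes, the Nectin2 window 2 GC boxes and the Bcl3 window 3 GC boxes, and none of them held TATAAA. The GC content was 55.2% for Tomm40, 62.0% for Nectin2 and 67.6% for Bcl3. A GC box was found in 23 of 31 such windows of tested listed genes (74.2%, of 27 genes in the table), and in 57.2% of 11098 windows of all genes with a tested probe set. CCAAT was in 25.8% of the windows of listed genes, against 34.4% of all, and TATAAA in 0 of 31, against 7.02% of all. None of these motifs contains another, and a match is a description of the sequence and not of a bound site.

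Tomm40 encodes the channel through which proteins enter mitochondria. It had 483 and 466 in vitamin E-treated ApoE-/-, 547 and 555 in untreated ApoE-/- and 298 and 267 in B6 aortas. All ApoE-/- arrays lay above both B6 arrays, and the log2 fold change of both ApoE-/- groups was 0.86 (SE 0.07, limma adjusted p = 0.00013, 1.81-fold higher). Nectin2, an adhesion molecule of cell junctions and a ligand of the lymphocyte receptor Cd226, was lower instead, with 170 and 169 in vitamin E-treated ApoE-/-, 163 and 172 in untreated ApoE-/- and 233 and 300 in B6 aortas on probe set 1417703_at (log2 fold change -0.65, SE 0.12, limma adjusted p = 0.0043). A further probe set, 1424456_at, lay lower by 0.26 on the log2 scale with an adjusted p of 0.047, and this call was lost without any single one of the 6 arrays. This probe set was not called in either ApoE-/- group taken singly. Bcam, the laminin receptor of the Lutheran blood group, was not called. It had 341 and 529 in vitamin E-treated ApoE-/-, 499 and 492 in untreated ApoE-/- and 381 and 344 in B6 aortas. The vitamin E-treated arrays were far apart and overlapped with both other groups, while untreated ApoE-/- lay above B6. In untreated ApoE-/- aortas singly Bcam was not called (log2 fold change 0.45, limma adjusted p = 0.086), but it was called when only those 2 groups were compared.

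Members of the NF-kB pathway were higher in ApoE-/- aortas on most of their probe sets. NF-kB factors are dimers held in check by IkB proteins, and they drive transcription of inflammatory genes. Of 5 tested probe sets of Bcl3, Relb and Ppp1r13l, 4 were called higher and 1 lower in the mean of both ApoE-/- groups against B6, and taken singly 3 were called higher in vitamin E-treated ApoE-/- aortas, with 4 higher and 1 lower in untreated ApoE-/- aortas. Over all probe sets 24.1% were called higher and 21.3% lower in the mean of both ApoE-/- groups. The shares called higher singly were 21.9% with vitamin E and 21.7% in untreated ApoE-/- aortas. Of the 5 probe sets, 3 were of Ppp1r13l. Bcl3, an IkB-like nuclear protein that acts with p50 and p52 dimers, had 296 and 310 in vitamin E-treated ApoE-/-, 319 and 333 in untreated ApoE-/- and 180 and 185 in B6 aortas. The arrays of each group lay close together, and the log2 fold change was 0.78 (SE 0.08, limma adjusted p = 0.00029, 1.72-fold higher). Relb, a DNA-binding subunit of the alternative pathway, had 269 and 264 in vitamin E-treated ApoE-/-, 302 and 307 in untreated ApoE-/- and 230 and 214 in B6 aortas, again without overlap. Its log2 fold change was 0.36 (SE 0.08, limma adjusted p = 0.010), and the call was lost without B6 replicate 2 and with median centring. In vitamin E-treated ApoE-/- aortas singly Relb was not called (adjusted p = 0.060).

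Ppp1r13l, also known as iASPP, binds p53 and the NF-kB subunit p65. Its 3 tested probe sets did not move together. Probe set 1459592_a_at had 665 and 645 in vitamin E-treated ApoE-/-, 523 and 457 in untreated ApoE-/- and 242 and 200 in B6 aortas, a 2.57-fold higher mean of both ApoE-/- groups (log2 fold change 1.36, SE 0.10, limma adjusted p = 6.2e-05). Probe set 1459593_x_at was higher by 0.48 on the log2 scale (SE 0.12, limma adjusted p = 0.016), a call lost without either B6 array. Probe set 1439530_a_at had 209 and 251 in vitamin E-treated ApoE-/-, 163 and 165 in untreated ApoE-/- and 243 and 243 in B6 aortas, and was called lower in untreated ApoE-/- against B6 (log2 fold change -0.57, limma adjusted p = 0.0089) but not in vitamin E-treated ApoE-/- against B6 (-0.09, adjusted p = 0.60). The call of 1439530_a_at in untreated ApoE-/- aortas was lost without either B6 array. In the mean of both ApoE-/- groups this probe set was called lower (log2 fold change -0.33, limma adjusted p = 0.039). That call was lost without any single array except vitamin E-treated replicate 2. Which transcripts each probe set detects was not examined.

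Elsewhere in the genome, 3 of 10 tested genes of a list of NF-kB and IkB genes were called higher and none lower in the mean of both ApoE-/- groups against B6, with a median log2 fold change of 0.15. The share called was 30%, below the 46.9% over all 10641 genes. Nfkb2 had the highest log2 fold change of this list (0.98), while Rela (0.15), Ikbkb (0.04) and Nfkbia (-0.14) were not called. Nfkb2, the partner of Relb, had 310 and 253 in vitamin E-treated ApoE-/-, 360 and 297 in untreated ApoE-/- and 146 and 162 in B6 aortas. Markers of immune cells were also higher in ApoE-/- than in B6 aortas. T cell and thymocyte markers summed to 11267 in vitamin E-treated ApoE-/-, 6897 in untreated ApoE-/- and 1874 in B6 aortas. Of these, 8 of 8 were called higher in both ApoE-/- groups. B cell markers summed to 5435 in vitamin E-treated ApoE-/-, 4991 in untreated ApoE-/- and 3039 in B6 aortas, with 3 of 3 called higher. Macrophage markers summed to 12588 in vitamin E-treated ApoE-/-, 13762 in untreated ApoE-/- and 9479 in B6 aortas, with 5 of 7 called higher. With vitamin E against no treatment, 5 of 8 T cell markers were called higher and 2 of 7 macrophage markers lower. In that comparison Bcl3 (log2 fold change -0.10) and Relb (-0.19) were not called, and 2 probe sets of Ppp1r13l were called higher. Their part in the values of Bcl3, Relb and Ppp1r13l was not tested.

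**Figure D2:**
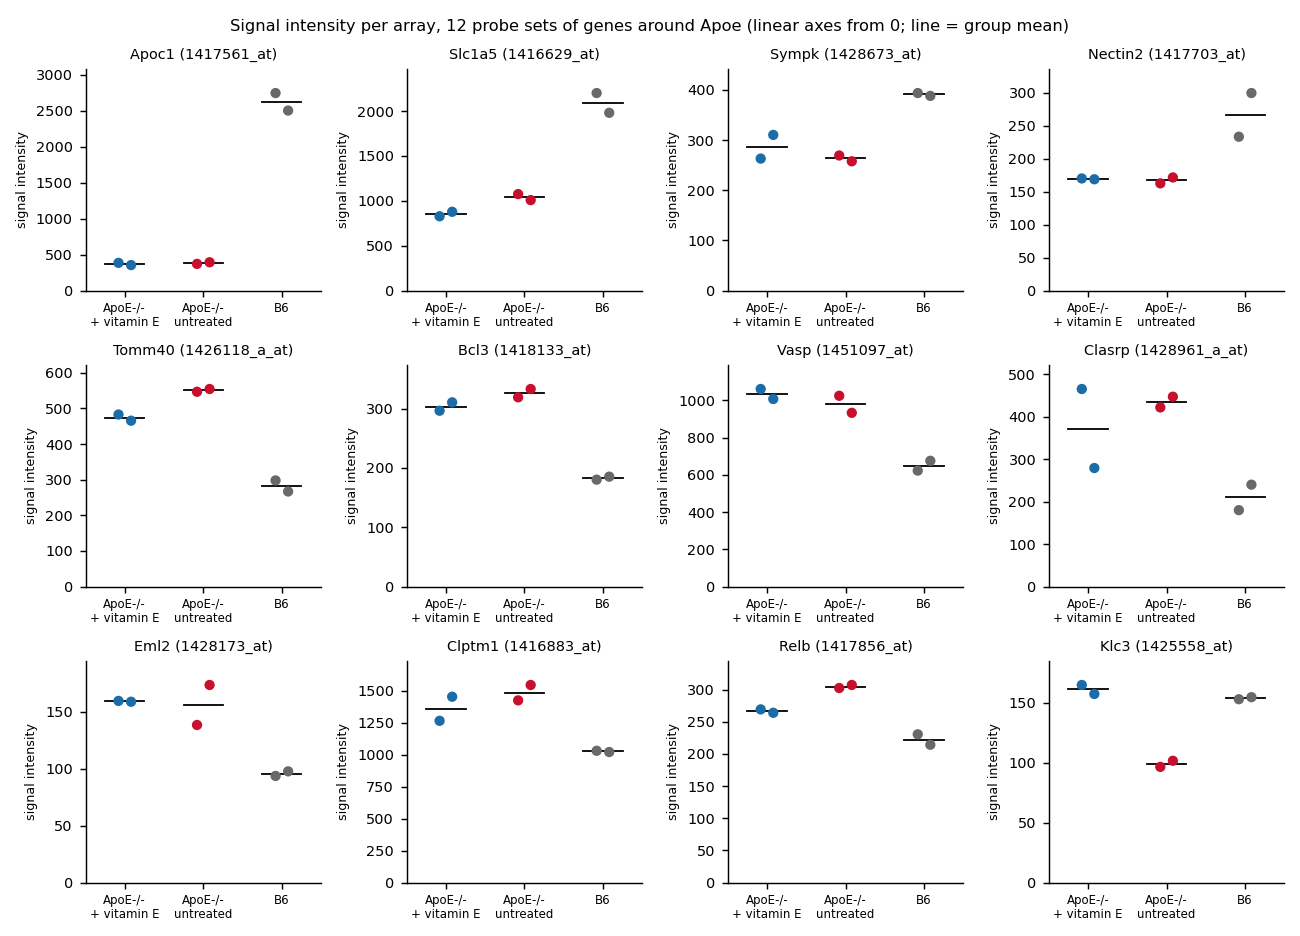
Signal intensity (linear axis from 0) on each of the 6 arrays for 12 probe sets, with vitamin E-treated ApoE-/- in blue, untreated ApoE-/- in red and B6 in grey, and the group mean as a line. The top row holds members with lower values in both ApoE-/- groups, such as Apoc1 with at most 394 against at least 2501 in B6; the middle row and the first 3 panels of the bottom row hold members with higher values, and Klc3 differs in untreated ApoE-/- aortas.

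Among the other adhesion molecules, Pvr encodes the poliovirus receptor, a relative of Nectin2 that binds the lymphocyte receptors Cd226 and Tigit. Its 2 tested probe sets moved in opposite directions. Probe set 1423904_a_at had 170 and 132 in vitamin E-treated ApoE-/-, 154 and 154 in untreated ApoE-/- and 82.5 and 82.1 in B6 aortas (log2 fold change 0.88, SE 0.14, limma adjusted p = 0.0019). Probe set 1451160_s_at had 78.2 and 92.3 in vitamin E-treated ApoE-/-, 107 and 91.4 in untreated ApoE-/- and 132 and 116 in B6 aortas (log2 fold change -0.43, SE 0.15, limma adjusted p = 0.048), a call that was lost without 5 of the 6 arrays, the exception being vitamin E-treated replicate 2. The first reached the limit for testing only in ApoE-/- aortas, and stayed called without that limit, while the second reached it only in B6 aortas and was not called without it. The second was also not called in untreated ApoE-/- aortas singly (limma adjusted p = 0.17). Cadm4, an adhesion molecule of epithelium and glia, did not pass the test, with a log2 fold change of 0.01 (SE 0.10). In a list of nectins and related adhesion genes elsewhere in the genome, 1 of 5 tested genes was called higher and 2 lower in the mean of both ApoE-/- groups against B6. The share called was 60%, where it was 46.9% over all 10641 genes.

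Genes of mitochondria and metabolism held another gene that was far lower in ApoE-/- aortas. Slc1a5 encodes a carrier of glutamine and other neutral amino acids across the cell membrane. It had 828 and 878 in vitamin E-treated ApoE-/-, 1075 and 1008 in untreated ApoE-/- and 2201 and 1980 in B6 aortas. All ApoE-/- arrays lay below both B6 arrays, and the log2 fold change of both ApoE-/- groups was -1.15 (SE 0.07, limma adjusted p = 2.3e-05, 2.22-fold lower). Markers of adipocytes summed to 16518 in vitamin E-treated ApoE-/-, 17758 in untreated ApoE-/- and 22014 in B6 aortas, with 2 of 4 called lower and 1 higher in both ApoE-/- groups. Lung epithelium markers summed to 10201 in vitamin E-treated ApoE-/-, 13037 in untreated ApoE-/- and 15716 in B6 aortas. In the mean of both ApoE-/- groups 4 of 4 lung markers were called lower, and 3 were called lower with vitamin E than without. The part of these markers was not tested.

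Opa3, a mitochondrial membrane protein that is mutated in hereditary optic atrophy, had 3 tested probe sets. Probe set 1455131_at had 284 and 334 in vitamin E-treated ApoE-/-, 441 and 443 in untreated ApoE-/- and 503 and 519 in B6 aortas (log2 fold change of both ApoE-/- groups -0.47, SE 0.08, limma adjusted p = 0.0035). Taken singly, 1455131_at was called lower in vitamin E-treated ApoE-/- aortas (-0.73, limma adjusted p = 0.0011). It was not called in untreated ApoE-/- aortas (-0.21, adjusted p = 0.12). Probe set 1447724_x_at was lower by 0.33 on the log2 scale (adjusted p = 0.029), a call lost without either B6 array, and probe set 1434886_at was not called, with a log2 fold change of 0.02 (SE 0.09). Singly, 1447724_x_at was called with vitamin E but not in untreated ApoE-/- aortas (limma adjusted p = 0.16). Ethe1, a sulfur dioxygenase of mitochondria at the far end of the stretch, had a mean of 324 in vitamin E-treated ApoE-/-, 276 in untreated ApoE-/- and 238 in B6 aortas, and was called higher in the mean of both ApoE-/- groups (log2 fold change 0.33, limma adjusted p = 0.026). Ethe1 was not called in untreated ApoE-/- aortas singly (limma adjusted p = 0.15).

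Genes of signalling and the cytoskeleton were called higher on 5 of 8 probe sets in the mean of both ApoE-/- groups against B6, and none was called lower. Over all probe sets 24.1% were called higher and 21.3% lower in this comparison. Of the 8 probe sets, 3 were of Prkd2. Taken singly, 5 were called higher in vitamin E-treated ApoE-/- aortas (Vasp, Eml2 and 3 probe sets of Prkd2) and 4 in untreated ApoE-/- aortas (Vasp, Eml2, Ppp1r37 and Strn4). Vasp, which promotes the growth of actin filaments, had 1062 and 1008 in vitamin E-treated ApoE-/-, 1025 and 934 in untreated ApoE-/- and 623 and 676 in B6 aortas. All ApoE-/- arrays lay above both B6 arrays, and the log2 fold change was 0.63 (SE 0.07, limma adjusted p = 0.00033, 1.55-fold higher). Eml2, a microtubule-associated protein, had 160 and 159 in vitamin E-treated ApoE-/-, 139 and 174 in untreated ApoE-/- and 93.7 and 97.8 in B6 aortas (log2 fold change 0.72, SE 0.13, limma adjusted p = 0.0039). Eml2 reached the limit for testing only in ApoE-/- aortas, and stayed called without that limit. Ppp1r37, a regulatory subunit of protein phosphatase 1, was higher by 0.31 (adjusted p = 0.015) and Strn4, a scaffold of phosphatase complexes, by 0.42 (adjusted p = 0.038), on the log2 scale. Strn4 was not called in vitamin E-treated ApoE-/- aortas (0.16, adjusted p = 0.43). Mark4, a kinase of microtubule-associated proteins, was not called (log2 fold change -0.26, SE 0.13).

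Prkd2, a serine/threonine kinase of the protein kinase D family, also had 3 tested probe sets. Probe set 1434333_a_at had 375 and 291 in vitamin E-treated ApoE-/-, 291 and 276 in untreated ApoE-/- and 214 and 220 in B6 aortas (log2 fold change of both ApoE-/- groups 0.50, SE 0.11, limma adjusted p = 0.010), and this call was lost without either B6 array. Probe sets 1436589_x_at and 1434334_at were not called in that comparison, with log2 fold changes of 0.35 (adjusted p = 0.052) and 0.11 (adjusted p = 0.27).

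**Figure D3:**
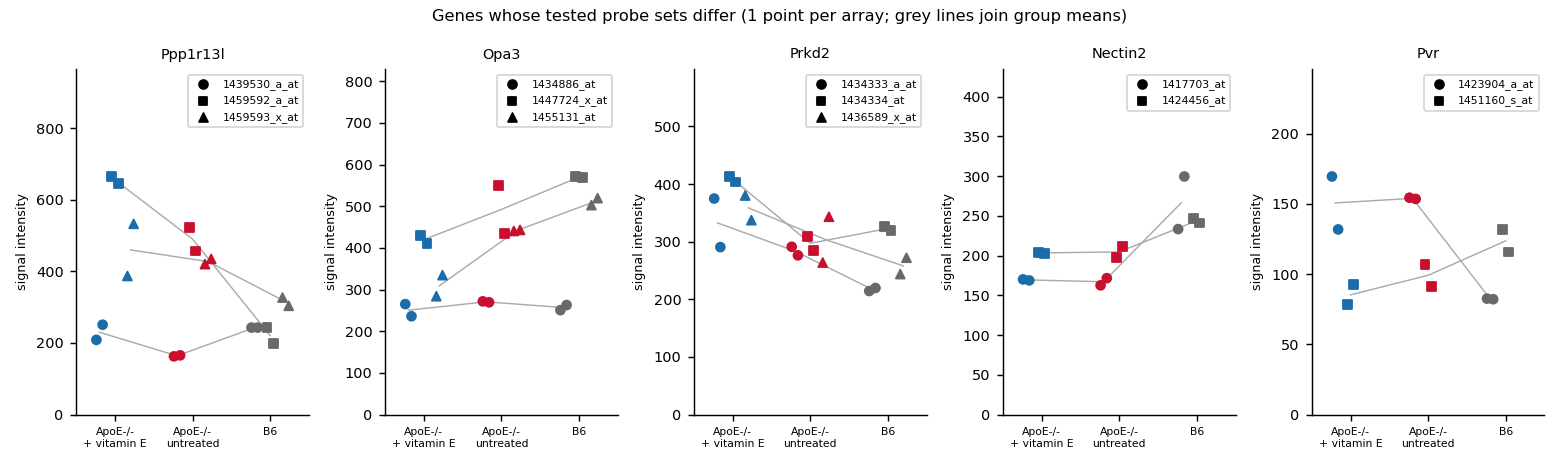
Signal intensity on each array (linear axis from 0) for the tested probe sets of Ppp1r13l, Opa3, Prkd2, Nectin2 and Pvr, with vitamin E-treated ApoE-/- in blue, untreated ApoE-/- in red and B6 in grey; marker shape gives the probe set and grey lines join the group means. The lines of a gene cross or diverge: in Pvr, 1 probe set is higher in ApoE-/- aortas (132 to 170) than in B6 (82.1 and 82.5) and the other is lower.

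Genes of RNA processing moved in both directions. Sympk encodes symplekin, a scaffold of the complex that cleaves and polyadenylates mRNA. It had 263 and 310 in vitamin E-treated ApoE-/-, 269 and 258 in untreated ApoE-/- and 394 and 388 in B6 aortas (log2 fold change of both ApoE-/- groups -0.51, SE 0.09, limma adjusted p = 0.0035). Clasrp, an SR-like protein that interacts with a kinase of splicing factors, had 465 and 279 in vitamin E-treated ApoE-/-, 421 and 447 in untreated ApoE-/- and 180 and 240 in B6 aortas. The vitamin E arrays were far apart, yet all ApoE-/- arrays lay above both B6 arrays, and the log2 fold change was 0.93 (SE 0.20, limma adjusted p = 0.0084), a call lost without B6 replicate 1. Smg9, a subunit of the kinase complex of nonsense-mediated decay, had 278 and 247 in vitamin E-treated ApoE-/-, 221 and 190 in untreated ApoE-/- and 190 and 126 in B6 aortas (log2 fold change 0.58, SE 0.17, limma adjusted p = 0.027), a call lost without vitamin E-treated replicate 1, untreated replicate 1 or B6 replicate 2 and with median centring. Smg9 was not called in untreated ApoE-/- aortas singly (limma adjusted p = 0.14). Gemin7, a part of the complex that assembles spliceosomal particles, was not called (log2 fold change 0.21, SE 0.12).

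Genes of membranes and trafficking included Clptm1, a membrane protein that retains receptor subunits inside the cell. It had 1264 and 1452 in vitamin E-treated ApoE-/-, 1423 and 1544 in untreated ApoE-/- and 1029 and 1020 in B6 aortas (log2 fold change of both ApoE-/- groups 0.47, SE 0.07, limma adjusted p = 0.0017). Trappc6a, a subunit of a vesicle tethering complex, was higher by 0.38 (adjusted p = 0.00685) and Bloc1s3, needed for lysosome-related organelles, by 0.45 (adjusted p = 0.036), on the log2 scale. Trappc6a was not called in vitamin E-treated ApoE-/- aortas singly (limma adjusted p = 0.073). Bloc1s3 reached the limit for testing only in ApoE-/- aortas, with a mean of 89.5 in B6, and was not called in either ApoE-/- group taken singly. Ap2s1, the small subunit of the clathrin adaptor of the plasma membrane, was not called (log2 fold change 0.15, SE 0.06, adjusted p = 0.075).

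Both transcriptional regulators tested were called higher in the mean of both ApoE-/- groups, where 24.1% of all probe sets were called higher. Six5, a homeobox factor, was dim, with 92.8 and 124 in vitamin E-treated ApoE-/-, 76.3 and 80.6 in untreated ApoE-/- and 66.0 and 63.5 in B6 aortas (log2 fold change 0.50, SE 0.17, limma adjusted p = 0.040), and the call was lost without either untreated or either B6 array and with median centring. It reached the limit for testing only in vitamin E-treated ApoE-/- aortas, and would not have been tested without vitamin E-treated replicate 2 or with the limit set on the mean of all arrays. Six5 was not called in untreated ApoE-/- aortas singly (limma adjusted p = 0.28). Irf2bp1, a corepressor, was higher by 0.31 on the log2 scale (adjusted p = 0.022). DNA repair genes were not called on any of their 3 tested probe sets: Ercc1, part of the endonuclease that cuts DNA beside a lesion, had log2 fold changes of 0.04 and -0.11, and Xrcc1, the scaffold of single-strand break repair, had 0.14 (SE 0.12). None of the 3 had an unadjusted p under 0.05, in limma or in the t-test, where limma called 45.4% of all probe sets. Elsewhere in the genome, 4 of 21 tested excision repair genes were called higher and 2 lower in the mean of both ApoE-/- groups. The share called was 28.6%, below the 46.9% over all 10641 genes. Plaur, the urokinase receptor, was not called (log2 fold change 0.26, SE 0.14). It had 83.5 and 105 in vitamin E-treated ApoE-/-, 121 and 123 in untreated ApoE-/- and 90.2 and 87.8 in B6 aortas. Only vitamin E-treated ApoE-/- and B6 overlapped, and Plaur reached the limit for testing only in untreated ApoE-/- aortas. Singly it was not called there either (log2 fold change 0.46, limma adjusted p = 0.061).

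Calls in both directions between ApoE-/- and B6 aortas occurred on both sides of Apoe, and Apoc1, with the largest difference of the members, lay next to it. Counted in the mean of both ApoE-/- groups against B6, the 7 probe sets of Tomm40 to Pvr gave 3 calls higher and 3 lower, with a median log2 fold change without sign of 0.65. The 23 probe sets from Irf2bp1 to Apoc1 gave 12 higher and 5 lower (0.38), the 6 of Ap2s1 to Prkd2 gave 2 higher and 1 lower (0.38), and the 5 of Smg9 to Ethe1 gave 2 higher and none lower (0.26). With 1 probe set per gene, 22 of 32 listed genes were called (68.8%), 17 higher and 5 lower. Of the other protein-coding genes between Ap2s1 and Ethe1, 10 of 20 tested were called (50%), 5 in each direction. Farther out on chromosome 7 the shares were 32 of 58 (55.2%) beyond Ap2s1 and 72 of 114 (63.2%) beyond Ethe1, and over all 10641 genes it was 46.9%. The difference between these shares was not tested.

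Some genes that are not listed stood out within the stretch. Pglyrp1, a peptidoglycan-binding protein of granulocytes, had 517 and 517 in vitamin E-treated ApoE-/-, 674 and 623 in untreated ApoE-/- and 98.9 and 109 in B6 aortas (log2 fold change of both ApoE-/- groups 2.48, limma adjusted p = 1.6e-06). Igsf23, an immunoglobulin-like gene 10 genes away from Apoe on the Tomm40 side, had 115 and 123 in vitamin E-treated ApoE-/-, 108 and 102 in untreated ApoE-/- and 28.9 and 52.6 in B6 aortas (log2 fold change 1.52, limma adjusted p = 0.0020), and it reached the limit for testing only in ApoE-/- aortas. Ppp5c, a serine/threonine phosphatase, gave opposite calls, with log2 fold changes of 0.77 and 0.49 on a pair of probe sets and -1.04 on another.

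**Figure D4:**
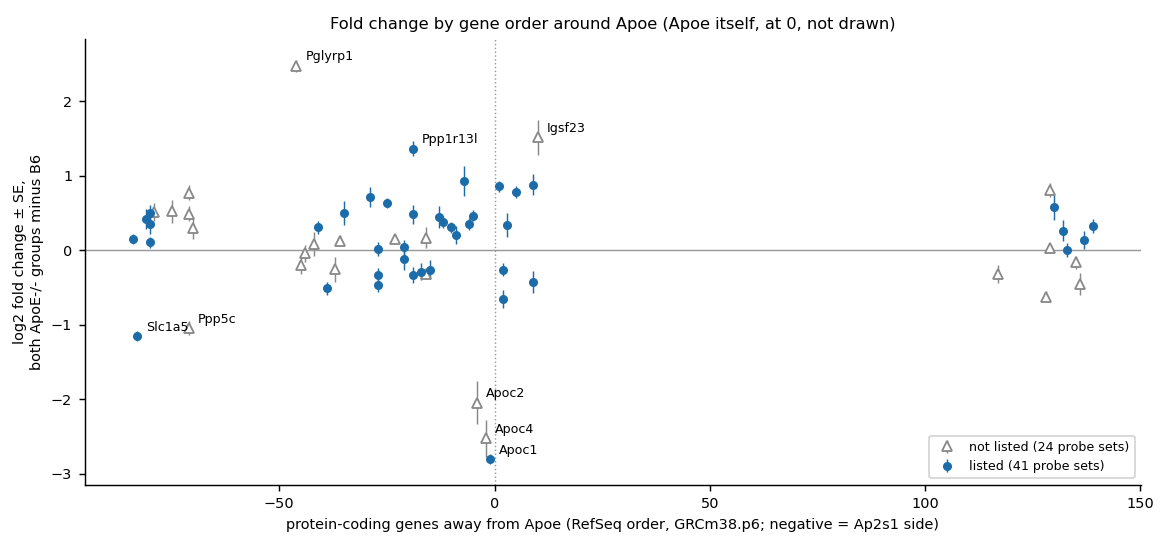
Log2 fold change with standard error (limma, both ApoE-/- groups minus B6) against the number of protein-coding genes away from Apoe, with listed genes as blue points (41 probe sets) and other genes of the stretch as open triangles (24 probe sets). Points on both sides of 0 occur at all distances; Apoc1, Apoc4 and Apoc2 lie lowest (-2.80, -2.52 and -2.04), and Pglyrp1 highest (2.48).

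Few of these genes differed between vitamin E-treated and untreated ApoE-/- aortas. With vitamin E set against no treatment in ApoE-/- mice, 6 of 41 probe sets were called (14.6%), 4 higher and 2 lower, where the share over all probe sets was 15.5% (8.52% higher and 6.99% lower). The median log2 fold change was -0.01, against 0.00 over all, so the members' share was close to that of the array. With median centring, 2 were called higher and 4 lower, against 5.1% and 10.2% of all. None of the 7 probe sets of Tomm40, Nectin2, Bcam, Bcl3 and Pvr was called by limma, where 1 had an unadjusted p under 0.05, or by the t-test after adjustment. All 6 calls were lost without either untreated array (4.79% of all were called without replicate 1 and 4.51% without replicate 2), and 3 calls were left without either B6 array (9.1% of all without replicate 1 and 9.43% without replicate 2).

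The highest of these calls was Klc3, a light chain of the motor protein kinesin. It had 165 and 157 in vitamin E-treated, against 96.6 and 102 in untreated ApoE-/- aortas, a log2 fold change of 0.70 (SE 0.13, limma adjusted p = 0.012), and the values in B6 aortas, 153 and 155, were close to those with vitamin E. Klc3 did not reach the limit for testing in untreated ApoE-/- aortas, and stayed called without that limit. Prkd2 on probe set 1434334_at had 413 and 404 with vitamin E, against 309 and 285 without (log2 fold change 0.46, SE 0.09, limma adjusted p = 0.014), and 326 and 320 in B6 aortas. The called Ppp1r13l probe sets were 1439530_a_at (log2 fold change 0.48, limma adjusted p = 0.039) and 1459592_a_at (0.42, adjusted p = 0.049). On probe set 1459592_a_at both ApoE-/- groups lay above B6.

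Markers of stratified epithelium and skeletal muscle were also higher with vitamin E than without in ApoE-/- aortas. Stratified epithelium markers summed to 28212 in vitamin E-treated and 14207 in untreated ApoE-/- aortas, with 26031 in B6, and 6 of 6 were called higher with vitamin E. Skeletal muscle markers summed to 38170 in vitamin E-treated and 15335 in untreated ApoE-/- aortas, with 29664 in B6, and 8 of 8 were called higher with vitamin E. Cardiac muscle markers moved the other way, with 23312 in vitamin E-treated and 42078 in untreated ApoE-/- aortas and 23056 in B6. T cell and thymocyte markers summed to 11267 in vitamin E-treated and 6897 in untreated ApoE-/- aortas, with 1874 in B6, and 5 of 8 were called higher with vitamin E. The part of these markers in the values of Klc3, Prkd2 and Ppp1r13l was not tested. The calls on the lower side were Opa3 on probe set 1455131_at (log2 fold change -0.52, SE 0.10, limma adjusted p = 0.014) and Slc1a5 (-0.29, SE 0.08, limma adjusted p = 0.044), and both lay farther from B6 with vitamin E than without.

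A further 34 probe sets of the listed genes were under the limit for testing and are given without a test. Their highest signal intensity on any array was 129, and 6 of them lay under 20 on all arrays. The ApoE-/- arrays lay all above B6 for 4 of them and all below for 8, against 13.4% and 9.1% of all probe sets under the limit. For 11 genes no probe set could be tested, among them Fosb, an immediate early transcription factor, Ptgir, the prostacyclin receptor of smooth muscle and platelets, Ercc2, a helicase of excision repair, Foxa3, a liver transcription factor, and Gipr, the receptor of an intestinal hormone. Ptgir had a mean of 52.8 in vitamin E-treated ApoE-/-, 54.4 in untreated ApoE-/- and 79.5 in B6 aortas. Snrpd2, a core protein of spliceosomal particles, shared its only probe set with a gene model named Gm5848, so its level could not be told apart from that of the other transcript.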

How the data were processed

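Aortic gene expression was measured on 6 Affymetrix MG430 2.0 arrays, 2 per group, with RNA of 3 aortas pooled per array. The deposited values are linear signal intensities, which the authors computed and scaled per array with GCOS. The scaling sets a trimmed mean of the probe sets to the same value on each array, so a change of most genes in one direction would be removed. Present calls were not used here, and no file gives a depth, so the number of arrays limits the precision. The rule for the members rests on name and position alone, but members and gene lists were chosen with earlier results of these data known.

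Probe sets were named through the annotation of the array and RefSeq gene identifiers (GRCm38.p6). Of the 45101 probe sets, 64 were controls, 34945 had 1 symbol, 932 several and 9160 none. No coordinates of that assembly are given except for the promoter windows. Values under 20 were set to 20 and log2-transformed, and the 17909 probe sets that reached a mean of 100 in 1 group or more were tested. limma 3.58.1 (R 4.3.3) was used to fit 1 mean per group on the 6 arrays, and eBayes with a trend on intensity gave 4.46 prior degrees of freedom beside 3 residual ones. P values of limma were adjusted by Benjamini-Hochberg, and fold changes are on the log2 scale after the limit of 20. P values measure the spread between arrays, each a pool of mice. The procedure was run on simulated data with independent normal noise. These held no group differences in RNA labelling or quality, so the run cannot speak to such differences.

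Values on every array are given for members called in both ApoE-/- groups minus B6 with a log2 fold change of at least 0.5 in size, for members within 6 genes of Apoe, for members called in vitamin E-treated minus untreated ApoE-/-, and for genes whose tested probe sets differ; other members are given in less detail. Gene lists were described with 1 probe set per gene, the one with the highest mean. Marker lists were summed per array in the same way. Each was described for cells or tissues near the aorta, and of these the endothelial markers summed to 2894 in vitamin E-treated ApoE-/-, 3296 in untreated ApoE-/- and 3171 in B6 aortas, and the lung markers to 10201 in vitamin E-treated ApoE-/-, 13037 in untreated ApoE-/- and 15716 in B6 aortas. Alternatives were median centring, quantile normalization, the filter dropped or applied to the mean of all arrays, the floor dropped or set to 50, eBayes without the trend, a fit of the compared groups alone, a block for the replicate number, omission of each array in turn, a single probe set for each gene, and the t-test of the methods, on linear and on log2 values.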

Additional observations from a re-analysis of the deposited data

Results flagged for a closer look

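For 6 probe sets of 5 listed genes, the difference from B6 itself differed between vitamin E-treated and untreated ApoE-/- aortas by the test of that difference in limma. The log2 differences, vitamin E-treated minus untreated ApoE-/-, were 0.70 for Klc3, 0.46 for Prkd2 (1434334_at), 0.48 and 0.42 for Ppp1r13l (1439530_a_at and 1459592_a_at), -0.52 for Opa3 (1455131_at) and -0.29 for Slc1a5. As 15.5% of all probe sets tested passed this test, a share of this kind was present across the array. None of the 6 calls was kept under every limma alternative.

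The probe set that Snrpd2 shares with Gm5848 was left out of the counts of members. It had at least 2371 on every ApoE-/- array, against 2101 and 2161 on the B6 arrays, and was called higher in the mean of both ApoE-/- groups (log2 fold change 0.17, limma adjusted p = 0.029) and in untreated ApoE-/- aortas (0.17, adjusted p = 0.048), but not in vitamin E-treated ApoE-/- aortas (0.16, adjusted p = 0.058). A probe set of Qpctl (1441323_at), counted among the members but under the limit for testing, had at least 51.4 on every ApoE-/- array and lay above both B6 arrays, whose mean was 46.5. Qpctl encodes a glutaminyl cyclase of the Golgi apparatus, and its other probe sets, 1449517_at and 1449518_at, lay below B6 on every ApoE-/- array.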

How the results depend on the processing

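No call of a named probe set changed direction under any alternative. Counts below are given for vitamin E-treated ApoE-/- minus B6, untreated ApoE-/- minus B6, both ApoE-/- groups minus B6, and vitamin E-treated minus untreated ApoE-/-, in this order. The members called were 23, 20, 28 and 6. Without a filter on dim probe sets, where more probe sets entered the adjustment, they were 10, 13, 14 and 2, and the counts over all probe sets were 4464, 4494, 5494 and 949 (9.9%, 10%, 12.2% and 2.1% of 45037). Leaving out an array, which also removes a residual degree of freedom, gave members between 9 and 20, 13 and 24, 14 and 26, and 0 and 5, and over all probe sets between 4353 and 7507, 4337 and 8791, 4682 and 8995, and 808 and 3517. The lowest counts of members came without B6 replicate 2 (9), untreated replicate 2 (13), B6 replicate 2 (14), and either untreated array (0). With 1 probe set per gene, 4751, 4606, 5167 and 1828 of all were called, and with only the 2 groups compared 1820 in the vitamin E comparison.

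The methods' t-test, at a p of at most 0.01 and at least 2-fold, called 3, 2, 3 and 0 members on log2 values and 3, 1, 3 and 0 on linear values. Over all probe sets it called 586, 789, 781 and 184 on log2 values and 588, 790, 638 and 178 on linear values. After Benjamini-Hochberg adjustment it called 0, 7, 12 and 0 members (67, 2156, 3355 and 0 of all) on log2 values and 0, 8, 9 and 0 members (76, 2166, 3065 and 0 of all) on linear values.

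The replicate numbers did not pair the arrays: deviations of arrays with the same number correlated at 0.0547 between the ApoE-/- groups, -0.0979 between vitamin E-treated ApoE-/- and B6, and 0.0541 between untreated ApoE-/- and B6. With the replicate block, 22, 20, 24 and 4 members were called (6991, 6887, 7782 and 2185 of all). Of the named calls, 8 of 21, 10 of 16, 11 of 22 and 0 of 6 were kept under every limma alternative. In the mean of both ApoE-/- groups minus B6, those kept were Apoc1, Slc1a5, Tomm40, Bcl3, Vasp, Clptm1, Eml2, Sympk, Pvr (1423904_a_at), Opa3 (1455131_at) and Ppp1r13l (1459592_a_at).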

Other observations

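Within the stretch, genes that are not listed differed with vitamin E. Lypd5, a member of the Ly6 and urokinase receptor family, had signal intensities of 607 and 644 in vitamin E-treated and 182 and 171 in untreated ApoE-/- aortas, with 507 and 516 in B6 (log2 fold change with vitamin E 1.82, SE 0.08, limma adjusted p = 4.1e-05). Pinlyp, a related gene near Xrcc1, had 160 and 204 in vitamin E-treated and 55.1 and 66.4 in untreated ApoE-/- aortas, with 148 and 137 in B6 (1.58, SE 0.18, adjusted p = 0.0018). Ckm, the creatine kinase of muscle next to Klc3, had 7331 and 7893 in vitamin E-treated and 4156 and 4228 in untreated ApoE-/- aortas, with 7195 and 6899 in B6 (0.86, SE 0.07, adjusted p = 0.00046). Each of these genes was lower in untreated ApoE-/- than in vitamin E-treated ApoE-/- or B6 aortas on every array. Markers of stratified epithelium (6 of 6) and skeletal muscle (8 of 8) were also called higher with vitamin E, at summed levels 1.99 and 2.49 times those of untreated ApoE-/- aortas, and their part in these values was not tested.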
